A study of Mus musculus with 6 samples.

Results

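Transcript counts of 40 mouse imprinted genes were examined in cells sorted as cortical radial glia, the progenitors that line the ventricles of the embryonic forebrain. The genes were taken as a fixed list and matched by symbol to the deposited table, where each of the 40 symbols was found in 1 of 52636 rows. Of these 40 genes, 36 passed the filter on low counts, as did 16869 genes of the whole table. Phlda2, Slc22a18, Rtl1 and Kcnk9 did not pass. The cells came from forebrains of E12.5 mouse embryos (embryonic age in days), were dissociated mechanically and were sorted for the surface protein Prominin1. Embryos of both groups were heterozygous for floxed alleles of Smad1 and Smad5 (wt/fl), on a mixed background of CD1, 129/ola and C57BL6. The SmadNes mutants also carried Nestin:Cre (Cre+/0), in which the Nestin promoter drives Cre recombinase in neural progenitors, and the control littermates had no Cre (Cre0/0). Smad1 and Smad5 encode transcription factors of bone morphogenetic protein signalling. Each genotype had 3 pools of cells, named SF3, SF4 and SF5_6 in both genotypes, and the sources used here do not say how many embryos made a pool.

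Imprinted genes are transcribed mainly from the copy inherited from 1 parent. Most lie in domains that share an imprinting control region, a stretch of DNA methylated on the maternal or the paternal chromosome, and many domains hold a long noncoding RNA that acts on its neighbours in cis. Many paternally expressed genes, such as Igf2, Peg3 and Dlk1, are known to favour growth of the fetus, and several maternally expressed ones, such as Cdkn1c, Igf2r, Grb10 and H19, to restrain it. In the brain some imprints depend on the cell type: Ube3a is expressed from the maternal copy in neurons and from both copies in many other cells. The counts here do not separate the parental copies.

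The libraries held between 32997423 and 40744672 expected counts. The targeted genes stood higher in the libraries labelled SmadNes, Smad5 at 292 ± 6.74 and 391 ± 18.8 CPM (counts scaled to the library total, with TMM factors; SD, n = 3 control and 3 SmadNes pools) and Smad1 at 75.6 ± 2.58 and 88.5 ± 3.83 CPM. Counts summed over a whole gene do not check a deletion, so that the directions given here rest on the labels. All 11 radial glia markers were detected, Prom1 among them at 120 ± 11.8 and 124 ± 11.97 CPM, with a summed level of 1752 to 2414 CPM per library. The 11 neuron markers summed to 5155 to 7003 CPM. Markers of other cells were present too, with sums of 303 to 1382 CPM for 11 genes of mesenchyme and meninges and 116 to 1126 CPM for 10 erythroid genes. The sums were 15.9 to 102 CPM for 10 microglial genes, 358 to 751 CPM for 9 genes of the choroid plexus and hem, and 19.4 to 26.2 CPM for 10 endothelial genes. Sums of different genes depend on the genes listed and their lengths, so they do not rank the cell types by number. None of these lists had a gene called between the genotypes by edgeR. DESeq2 with the replicate name as a block called Reln of the neuron list (adjusted p 3.8e-10) and Hbb-bt of the erythroid list (adjusted p 0.00361), and limma-voom with the block also called Reln (adjusted p 0.0271).

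Sequences upstream of the start are shown for 4 genes picked by name, not by a rule on how much they varied. These are Magel2, the neighbour of Ndn, and Mest, Dlk1 and Meg3, which were highest in the SF5_6 pools. RefSeq (GRCm38.p6) promoters were matched for 31 of the 40 genes, and H19, Cdkn1c, Rtl1, Peg10, Sgce, Impact, Peg13, Trappc9 and Kcnk9 had no match. Each line holds the 250 bases before a transcription start that overlap no annotated exon. The window of Ndn lies within an exon in GENCODE M21 and is not printed. Capitals mark TGCCGC (or its reverse complement GCGGCA), the hexamer that the zinc-finger protein ZFP57 binds when methylated at imprinting control regions, and GGCGCC, a GC-rich element bound by SMAD1 and SMAD5.
Magel2 (chr7:62376729-62376978, plus strand): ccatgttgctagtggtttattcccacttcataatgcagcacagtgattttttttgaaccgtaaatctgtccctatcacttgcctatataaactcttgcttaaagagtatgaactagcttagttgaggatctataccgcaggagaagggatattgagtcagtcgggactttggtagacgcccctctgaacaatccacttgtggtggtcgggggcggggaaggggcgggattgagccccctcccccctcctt
Mest (chr6:30737800-30738049, plus strand): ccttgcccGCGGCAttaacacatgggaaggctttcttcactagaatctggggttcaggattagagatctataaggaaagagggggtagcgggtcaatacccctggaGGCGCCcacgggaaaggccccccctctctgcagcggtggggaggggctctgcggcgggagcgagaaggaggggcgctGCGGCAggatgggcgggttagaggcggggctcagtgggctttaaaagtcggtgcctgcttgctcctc
Dlk1 (chr12:109452573-109452822, plus strand): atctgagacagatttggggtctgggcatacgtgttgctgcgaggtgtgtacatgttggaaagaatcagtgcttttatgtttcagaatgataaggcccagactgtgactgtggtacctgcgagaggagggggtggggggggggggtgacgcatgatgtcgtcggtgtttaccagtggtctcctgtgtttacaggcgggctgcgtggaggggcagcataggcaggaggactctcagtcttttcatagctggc
Meg3 (chr12:109540746-109540995, plus strand): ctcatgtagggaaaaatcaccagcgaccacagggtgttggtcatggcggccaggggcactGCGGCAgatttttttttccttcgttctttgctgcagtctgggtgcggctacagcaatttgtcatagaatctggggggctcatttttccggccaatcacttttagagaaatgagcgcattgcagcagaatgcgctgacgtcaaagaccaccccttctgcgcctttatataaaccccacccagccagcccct
The Mest window held 2 matches to TGCCGC and 1 to GGCGCC, with no overlap between them, the Meg3 window held 1 match to TGCCGC, and the windows of Magel2, Dlk1 and Ndn held neither. Over both strands and any start of a gene, TGCCGC occurred upstream of 5 of the 31 matched imprinted genes (16.1%), namely Copg2, Meg3, Mest, Plagl1 and Zim1, and of 9.84% of 27025 genes. GGCGCC occurred upstream of 6 of 31 (19.4%), namely Gnas, Mest, Peg3, Phlda2, Rasgrf1 and Usp29, and of 10.8% of all genes. Both motifs contain CpG, and the windows of the matched imprinted genes held a median of 12 CpG, against 6 in all genes. A match of letters is no evidence of binding.

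The levels of the imprinted genes ran from the most abundant transcripts of these cells to a few counts. Their summed level lay between 5715 and 7262 CPM in the 6 libraries. Per kilobase of exon, the scale on which levels of different genes are compared, Nnat was highest at 642 CPM per kb, above 99.9% of the tested genes. Nnat encodes neuronatin, a small membrane protein made by developing neurons, and is read from the paternal copy. Cdkn1c, which encodes the cell-cycle inhibitor p57, followed at 85.8 CPM per kb. Grb10, an adaptor that dampens insulin and IGF receptor signalling, stood at 81.9 CPM per kb. Gnas, which encodes the stimulatory G protein alpha subunit from both copies in most cells beside imprinted transcripts, stood at 79.0 CPM per kb. Mest, an alpha/beta-hydrolase, stood at 68.3, the zinc-finger factor Plagl1 at 48.3, and Ndn at 39.3 CPM per kb. The other end of the range held Airn (0.362 CPM per kb), the noncoding RNA that silences Igf2r, the Ras exchange factor Rasgrf1 (0.159) and the retrotransposon-derived Rtl1 (0.135). Phlda2, a placental growth restrainer, had 0, 0, 2, 1, 2 and 4 counts in control and SmadNes of SF3, SF4 and SF5_6, and the transporter Slc22a18 had 2, 4, 1, 0, 3 and 2. The potassium channel Kcnk9 had 9, 1, 4, 9, 2 and 0 counts. A count of 0 allows up to 3 counts, between 0.0736 and 0.0909 CPM in these libraries, for counting error only.

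Between the genotypes, Ndn was the 1 imprinted gene called under most tests. Without the replicate name as a block only DESeq2 called it. EdgeR's quasi-likelihood test on all 6 libraries called 0 of 36 imprinted genes at an adjusted p below 0.05, as it called 0% of the 16869 genes tested. At an unadjusted p below 0.05 it found 1 of the 36, Ndn, against 1.05% of all genes. With the replicate name as a block edgeR called Ndn alone of the 36 (0.0237% of all genes called), and 8 of the 36 (22.2%) had an unadjusted p below 0.05, against 6.23% of all genes: Ndn, Kcnq1ot1 and Plagl1 with higher and Peg10, Zim1, Magel2, Dlk1 and Meg3 with lower means in SmadNes. DESeq2 without the block also called Ndn alone (0.0415% of all genes), limma-voom called none without the block (0.00593%) and Ndn with it (0.0474%), and DESeq2 with the block called Ndn and Meg3 (0.083%). The median log2 difference of the 36 genes was -0.03, with 13 positive and 23 negative, beside -0.0004 for all genes tested.

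Ndn encodes necdin, a growth suppressor of the MAGE family that is abundant in postmitotic neurons and read from the paternal copy. The gene lies at GRCm38 chromosome 7, 62346569 to 62350262, as a single exon. The control libraries SF3, SF4 and SF5_6 had 112, 103 and 122 CPM, and the pools labelled SmadNes had 192, 169 and 172 CPM. The lowest SmadNes pool lay above the highest control pool, which was so for 2.39% of all tested genes, and for Ndn alone of the 36. The mean was 1.58-fold higher in SmadNes, a log2 difference of 0.66 (SE 0.082); the 3 pairs gave 0.78 (SF3), 0.71 (SF4) and 0.49 (SF5_6) on this scale. EdgeR's adjusted p was 0.965 without the block and 0.00757 with it. In simulated data with strongly varying dispersions the blocked fits made more false calls than the nominal rate. With the block and the SF3, SF4 or SF5_6 pair left out, Ndn was called each time, with log2 differences of 0.60, 0.63 and 0.74. The level of Ndn did not pass the test between replicate names (adjusted p 0.183). Of the markers of other cells, 11 of 11 mesenchyme and meninges genes had positive genotype differences (median log2 difference 0.19) and 9 of 9 tested erythroid genes negative ones (median -0.55), none of them called by edgeR, and their part in the difference of Ndn was not tested. The mesenchyme and meninges sum was higher in SmadNes in SF3 and SF5_6 and lower in SF4. The sum of the neuron markers was lower in SmadNes in SF3 and higher in SF4 and SF5_6, and its part was not tested either.

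Of the 5 other members of the Ndn domain, 0 were called on all libraries by edgeR, DESeq2 or limma-voom, with or without the block. Magel2, a MAGE-family gene of the same paternal domain, lies next along chromosome 7 (62377010 to 62381640) and had 36.2, 34.4 and 67.1 CPM in control SF3, SF4 and SF5_6 and 34.2, 24.7 and 47.6 CPM in SmadNes. It was lower in SmadNes in 3 of 3 pairs, as were 14.3% of all tested genes, and the genotypes overlapped. Its log2 difference was -0.37 (SE 0.34) without the block and -0.35 (SE 0.080, adjusted p 0.397) with it, and it was called with the block when the SF3 pair was left out (-0.49, adjusted p 0.0441). The ring-finger gene Mkrn3 had a mean of 13.02 ± 1.22 CPM in control and 14.05 ± 1.36 CPM in mutant libraries (SD, n = 3; pairs of means below are in this order). Peg12, a relative of the GSK-3 inhibitors known as FRATs, stood at 40.8 ± 8.16 and 41.6 ± 5.97 CPM. Snrpn, which encodes a core protein of the spliceosome and shares 27.3% of its exon bases with a same-strand gene model, Gm38393, stood at 81.3 ± 9.16 and 76.6 ± 5.65 CPM. Ube3a, the maternally expressed ubiquitin ligase at the far end of the domain, had 306, 297 and 301 CPM in controls and 302, 326 and 309 CPM in SmadNes, a log2 difference of 0.05 (SE 0.049).

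**Figure D1:**
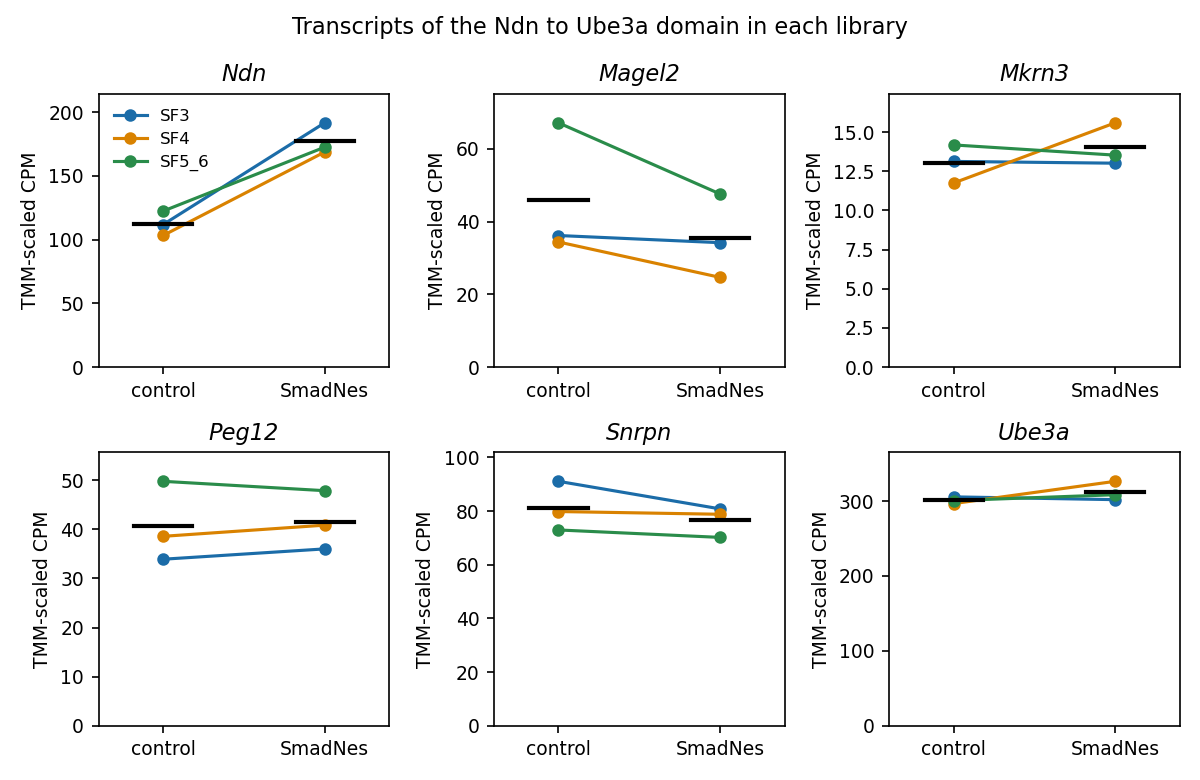
Each panel plots the TMM-scaled CPM (linear axis from 0) of 1 gene in control libraries and in libraries labelled SmadNes, with a line joining pools of 1 replicate name and black bars for the mean of 3 pools. Ndn rises along all 3 lines, from 103 to 122 CPM to 169 to 192 CPM, while Magel2 lies lower in SmadNes and its SF5_6 pools stand above the others.

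Chromosome 7 holds 16 of the 40 imprinted genes, and of the 4 genes that edgeR called with the block, Ndn, Homer2 and A230056P14Rik lie on it, with Smad5 on chromosome 13. A230056P14Rik lies at 55962531 to 55980868 and had a log2 difference of -3.85 without the block. Homer2 lies at 81600481 to 81707527 and had -0.39. At an unadjusted p below 0.05 with the block, 129 of 1328 tested genes of chromosome 7 (9.71%) and 5.93% of the genes of other chromosomes differed. The cause of the larger share on chromosome 7, and its part in the difference of Ndn, was not tested. Within 2 Mb of Ndn 17 genes were tested, of which only Ndn was called. Of the other 16, Magel2, Otud7a (log2 difference -0.37) and Gm5898 (-0.32) had unadjusted p below 0.05 with the block.

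The Dlk1 to Meg3 domain on chromosome 12 carries the paternally expressed Dlk1, a transmembrane relative of Notch ligands, and Rtl1, with the maternally expressed noncoding RNAs Meg3, Rian and Mirg, which host small RNAs. Meg3 had 163, 148 and 316 CPM in control SF3, SF4 and SF5_6 and 153, 113 and 247 CPM in SmadNes. It was lower in SmadNes in 3 of 3 pairs, with a log2 difference of -0.29 (SE 0.39) without the block and -0.28 (SE 0.056) with it. DESeq2 with the block called it (adjusted p 0.00606), and edgeR with the block did not (0.376) unless the SF3 pair (0.0441) or the SF5_6 pair (0.0469) was left out. Dlk1 had 11.6, 7.37 and 62.4 CPM in controls and 11.4, 5.77 and 30.8 CPM in SmadNes. Its log2 difference was -0.76 (SE 0.95) without the block and -0.54 (SE 0.16, edgeR adjusted p 0.601) with it. It was called in no fit. Without the block and without the control library SF5_6 its estimate turned to 0.75, as that of Meg3 turned to 0.13. With the block, the estimates of both stayed negative whichever pair was left out. Rian stood at 170 ± 67.0 and 152 ± 52.2 CPM and Mirg at 4.19 ± 2.13 and 4.04 ± 2.24 CPM. Rtl1 had 8, 5 and 118 counts in control SF3, SF4 and SF5_6 and 4, 0 and 43 in SmadNes.

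In the Peg3 domain at the start of chromosome 7, the maternally expressed zinc-finger gene Zim1 had 6.62, 3.60 and 9.96 CPM in controls and 4.73, 3.19 and 4.96 CPM in SmadNes. Zim1 was lower in 3 of 3 pairs and was not called. Its log2 difference was -0.64 (SE 0.38) without the block and -0.59 (SE 0.16, edgeR adjusted p 0.5) with it. Without the block and without the control library SF5_6 the estimate was -0.25. Peg3, a paternally expressed zinc-finger regulator, had 240, 245 and 382 CPM in controls and 239, 247 and 320 CPM in SmadNes, so that the genotypes lay close in SF3 and SF4 and apart in SF5_6 (log2 difference -0.11, SE 0.21). Its divergent neighbour Usp29 stood at 44.8 ± 4.51 and 41.4 ± 5.71 CPM.

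On distal chromosome 7, Igf2, the paternally expressed fetal growth factor, shares 62.8% of its exon bases with a same-strand gene model, Gm49394, in GENCODE M21. It had 105, 72.1 and 155 CPM in controls and 150, 46.9 and 165 CPM in SmadNes. The noncoding RNA H19, read from the maternal copy beside Igf2, had 53.5, 37.9 and 91.0 CPM in controls and 66.0, 26.9 and 85.4 CPM in SmadNes. Both were higher in SmadNes in the SF3 pair and lower in the SF4 pair. Cdkn1c stood at 173 ± 22.5 and 177 ± 27.3 CPM. Kcnq1ot1, the paternal noncoding RNA that silences Cdkn1c and its neighbours on that copy, had 136, 155 and 138 CPM in controls and 172, 167 and 146 CPM in SmadNes. It was higher in 3 of 3 pairs, as were 13.8% of all tested genes, the genotypes overlapped, and with the block its unadjusted p was 0.00784 and its adjusted p 0.57. Inpp5f, a phosphoinositide phosphatase with an imprinted isoform, stood at 111 ± 9.85 and 105 ± 3.24 CPM.

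Among the receptors and signalling genes of other chromosomes, Grb10 had 637, 731 and 813 CPM in control SF3, SF4 and SF5_6 and 714, 753 and 816 CPM in SmadNes (log2 difference 0.07, SE 0.10). Plagl1, a paternally expressed zinc-finger factor that is known to regulate other imprinted genes, had 317, 386 and 395 CPM in controls and 360, 390 and 418 CPM in SmadNes (log2 difference 0.09, SE 0.10). Both genes were higher in 3 of 3 pairs, and the estimates of both turned just below 0 without the control library SF3. Igf2r, the receptor that clears IGF2, stood at 178 ± 8.75 and 183 ± 14.2 CPM, with its antisense RNA Airn at 1.29 ± 0.0747 and 1.32 ± 0.222 CPM. Rasgrf1 was low throughout, between 0.375 and 2.81 CPM.

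On chromosome 2, Nnat had 1115, 1100 and 1386 CPM in controls and 1195, 1091 and 1161 CPM in SmadNes (log2 difference -0.06, SE 0.10), and Gnas had 880, 870 and 922 CPM in controls and 895, 882 and 852 CPM in SmadNes (log2 difference -0.02, SE 0.051). Blcap, whose intron holds Nnat, stood at 68.6 ± 4.14 and 67.3 ± 0.452 CPM, and the peptidase gene H13 at 126 ± 3.97 and 125 ± 8.56 CPM. On chromosome 6, Peg10, a retrotransposon-derived gene needed in the placenta, had 62.2, 62.1 and 190 CPM in controls and 63.4, 54.9 and 140 CPM in SmadNes. Its log2 difference was -0.28 (SE 0.56) without the block and -0.21 (SE 0.076, edgeR adjusted p 0.715) with it. Sgce, which encodes epsilon-sarcoglycan, stood at 19.4 ± 3.36 and 18.9 ± 4.49 CPM. Mest stood at 271 ± 176 and 268 ± 170 CPM, and its antisense neighbour Copg2, a coatomer subunit, at 84.1 ± 1.86 and 83.2 ± 2.72 CPM. On chromosome 15 the noncoding Peg13 stood at 141 ± 16.6 and 132 ± 5.77 CPM and Trappc9, in whose intron it lies, at 52.6 ± 6.47 and 51.0 ± 6.18 CPM. Zrsr1, a splicing-factor retrogene, stood at 8.63 ± 0.456 and 9.11 ± 0.377 CPM, its host Commd1 at 21.5 ± 2.38 and 23.3 ± 2.20 CPM, and Impact, a translational regulator, at 33.6 ± 2.93 and 33.02 ± 1.85 CPM. In all, 5 of the 36 genes (13.9%) were higher in 3 of 3 pairs and 6 (16.7%) were lower in 3 of 3, near the 13.8% and 14.3% of all genes.

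**Figure D2:**
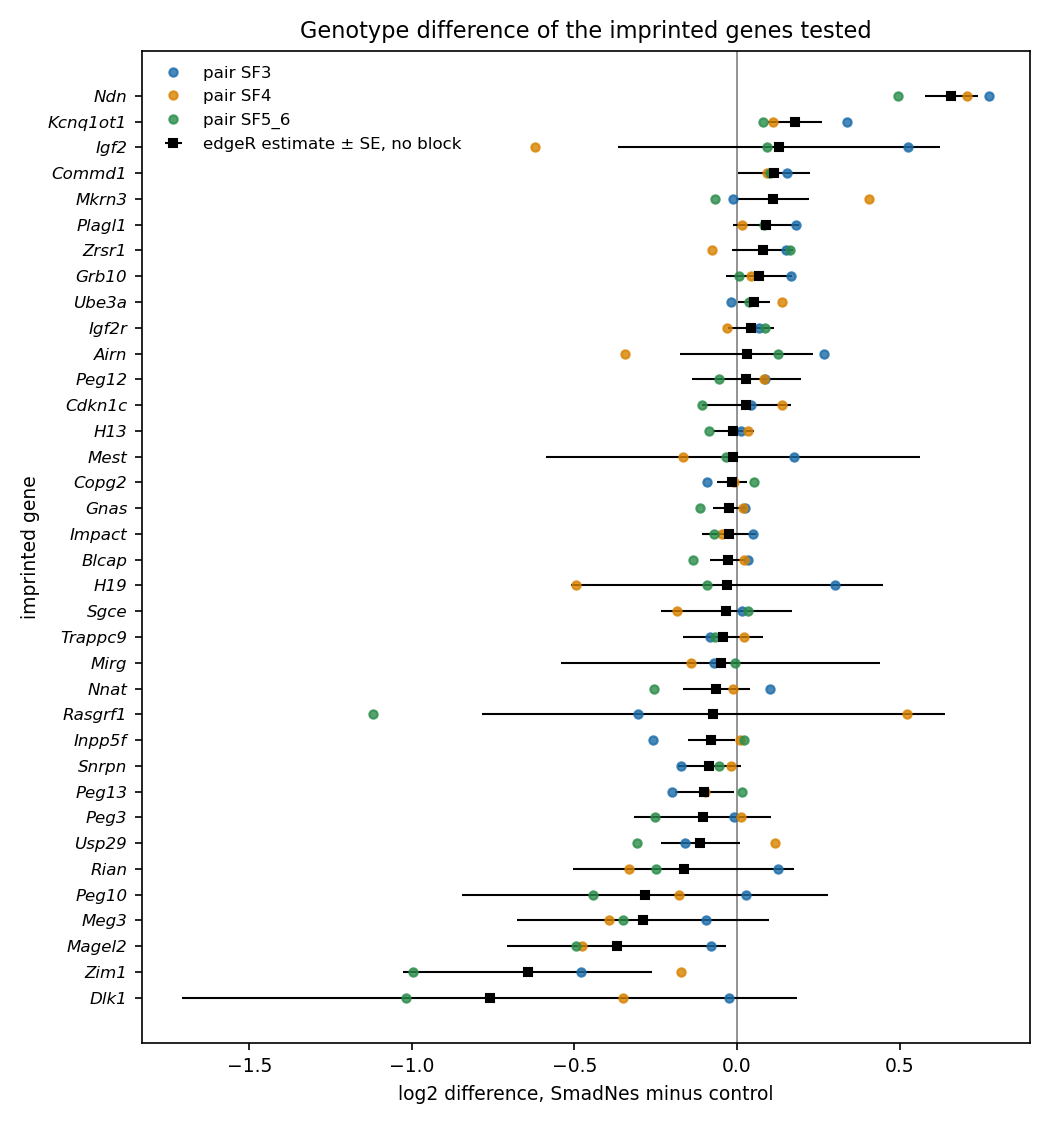
Imprinted genes are ordered by log2 difference (SmadNes minus control). Black squares and bars give the edgeR estimate ± SE over 3 pools per genotype, without the block. Coloured points give the difference within each pair. Ndn lies apart at 0.66 with pairs from 0.49 to 0.78, whereas Dlk1, Zim1, Igf2, H19 and Rasgrf1 have widely spread pairs.

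Between replicate names, 22 of the 36 tested genes were called, with neighbours of the same domain counted as separate genes. In simulated data with strongly varying dispersions this test made more false calls than the nominal rate. A test of the replicate name, with genotype in the model (edgeR's quasi-likelihood test), called these 22 (61.1%), against 28.8% of all genes tested. With only genes whose mean reached 20 CPM the shares were 18 of 29 imprinted genes (62.1%) and 34.2% of all. Both SF5_6 libraries stood above the other 4 for 17 of 36 imprinted genes (47.2%, against 23.2% of all genes), and below them for 5 (13.9%, against 24.8%). Of the 29 whose mean reached 20 CPM, 15 stood above (51.7%, against 19.5% of all such genes). The 5 below were H13, Snrpn, Rasgrf1, Trappc9 and Peg13. With SF3 and SF4 alone, 9 of 36 were called (25.0%, against 7.39% of all genes): Mest, Zim1, Magel2, H19, Igf2, Cdkn1c, Plagl1, Dlk1 and Meg3. Pools of 1 name differ from those of another in whatever made up the pool, and in such bulk samples fewer cells of a type and less RNA per cell cannot be told apart.

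Dlk1 had the largest contrast between names among the genes called, with means of 11.5, 6.57 and 46.6 CPM in SF3, SF4 and SF5_6, 7.09-fold from lowest to highest (adjusted p 4.48e-05). The other 4 listed genes of its domain were also highest in SF5_6: Meg3 at 158, 130 and 282 CPM, Rian at 136, 118 and 228 CPM, Mirg at 3.10, 2.62 and 6.62 CPM, and Rtl1 at 0.168, 0.0620 and 2.35 CPM, the last untested. Of the further imprinted genes of that region, Begain stood at 18.8, 16.3 and 16.3 CPM and Dio3 at 0.572, 0.691 and 0.670 CPM, neither called (adjusted p 0.175 and 0.809), both chosen after their values were seen. Mest (182, 158 and 468 CPM, 2.96-fold, adjusted p 5.47e-06) and Peg10 (62.8, 58.5 and 165 CPM, 2.82-fold, adjusted p 1.71e-05), both on chromosome 6, followed the same order of names. Sgce, which shares its start region with Peg10, differed less, at 18.1, 15.9 and 23.5 CPM. Further imprinted genes near Peg10 were chosen after their values were seen. Asb4 (7.60, 9.32 and 22.0 CPM, adjusted p 1.08e-04) and Pon2 (13.7, 14.4 and 21.1 CPM, adjusted p 0.0012) were called and highest in SF5_6. Casd1, Ppp1r9a and Pon3 were not called (adjusted p 0.532, 0.986 and 0.0954). Copg2 beside Mest stood at 83.5, 82.8 and 84.6 CPM and was not called (adjusted p 0.886). Within the Ndn domain Magel2 (35.2, 29.5 and 57.3 CPM) and Peg12 (35.0, 39.7 and 48.9 CPM) were highest in SF5_6, while Snrpn (86.0, 79.3 and 71.6 CPM) was lowest there. Rasgrf1 was highest in SF3 at 2.53 CPM and lowest in SF5_6 at 0.628 CPM. Cdkn1c was called at 202, 166 and 157 CPM, Peg13 at 148, 136 and 125 CPM and Trappc9 at 57.5, 52.8 and 45.1 CPM, each highest in SF3. Ndn, Mkrn3, Ube3a, Usp29, Kcnq1ot1, Inpp5f, Copg2, Nnat, Blcap, Gnas, Impact, Airn, Zrsr1 and H13 were the 14 not called.

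**Figure D3:**
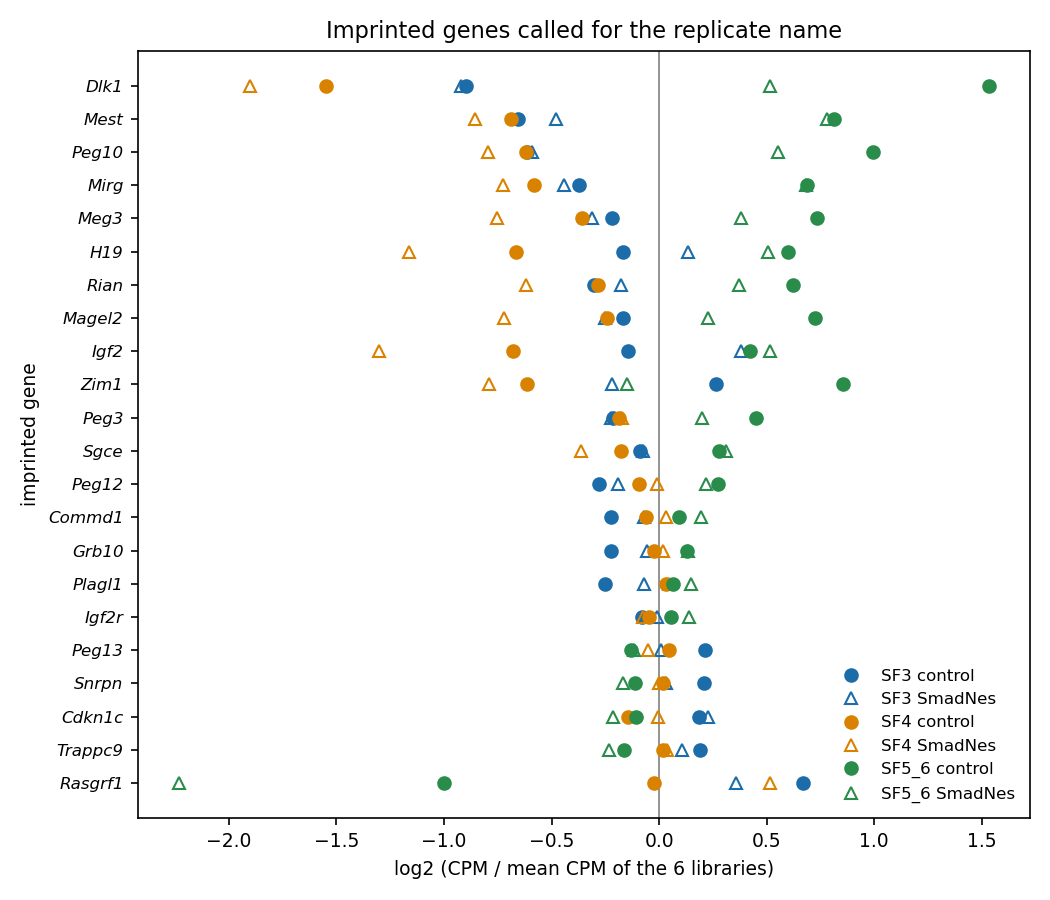
For the 22 imprinted genes called for the replicate name, each library's CPM is plotted as a log2 ratio to the gene's mean over 6 libraries (filled circles control, open triangles SmadNes, colours for the names). The SF5_6 libraries lie to the right for 16 genes, most widely for Dlk1, Mest and Peg10. Both lie to the left for Peg13, Snrpn, Trappc9, Rasgrf1 and Cdkn1c.

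Markers of other cells also differed between the names, for which 28.8% of all genes tested were called. The replicate name was called for 11 of 11 markers of mesenchyme and meninges, 9 of 9 tested erythroid markers, 10 of 10 microglial markers, 9 of 11 radial glia markers, 9 of 11 neuron markers, 6 of 9 choroid plexus and hem markers and 2 of 8 tested endothelial markers. In control SF3, SF4 and SF5_6 the mesenchyme and meninges sum was 666, 475 and 1111 CPM, and in SmadNes it was 931, 303 and 1382 CPM. The order of the 6 libraries by this sum, from SmadNes SF4 through control SF4, control SF3, SmadNes SF3 and control SF5_6 to SmadNes SF5_6, was also their order by Igf2. H19, Mest and Peg10 had this order with the SF5_6 libraries exchanged. Dlk1 and Meg3 differed from it within SF3 too, with control above SmadNes in each of the 3 pairs. Orders were compared with these genes for this marker sum and the erythroid sum only. The erythroid sum was 379, 116 and 1126 CPM in control SF3, SF4 and SF5_6 and 359, 123 and 666 CPM in SmadNes. It was higher in control in SF3 and SF5_6 and lower in control in SF4. Its order of the libraries was thus that of Dlk1 and Meg3 with the SF4 libraries exchanged. The choroid plexus and hem sum was 358, 440 and 751 CPM in controls and 441, 454 and 535 CPM in SmadNes. Neuron markers were highest in SF3 and lowest in SF5_6, at 7003, 5996 and 5155 CPM in controls and 6585, 6273 and 5197 CPM in SmadNes. Radial glia markers were highest in SF5_6, at 1752, 2003 and 2318 CPM in controls and 1886, 2061 and 2414 CPM in SmadNes. The part of these cell types in the differences of the imprinted genes was not tested.

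**Figure D4:**
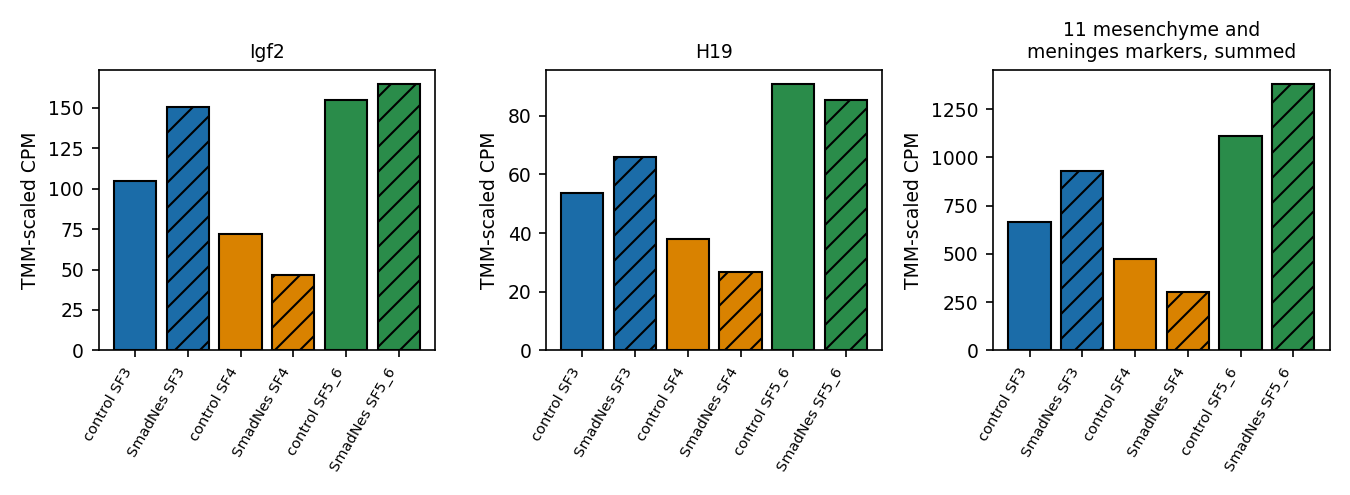
Bars give the TMM-scaled CPM (axes from 0) of Igf2, of H19 and of 11 summed markers of mesenchyme and meninges in each library, hatched for SmadNes and coloured by replicate name. All 3 panels are lowest in SmadNes SF4 and highest in the SF5_6 libraries, with Igf2 from 46.9 to 165 CPM and the marker sum from 303 to 1382 CPM.

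Other imprinted genes, the factors that keep imprints and the IGF pathway did not differ detectably between the genotypes. Of 57 further imprinted genes 55 were in the table and 39 were tested, with 22 positive and 17 negative log2 differences, a median of 0.01 and 0 called by edgeR, DESeq2 or limma-voom with or without the block. The 6 most abundant were the histone chaperone Nap1l4 (199 ± 2.56 and 201 ± 3.54 CPM), Zdbf2 (182 ± 36.3 and 194 ± 29.0 CPM), the actin-binding Ppp1r9a (137 ± 3.07 and 141 ± 3.28 CPM), the survival factor Bcl2l1 (99.4 ± 2.91 and 96.7 ± 2.28 CPM), the adaptor Gab1 (92.6 ± 26.0 and 93.9 ± 25.8 CPM) and the lipid-binding Osbpl5 (65.9 ± 15.1 and 69.5 ± 16.9 CPM). The replicate name was called for 15 of the 39, beside 28.8% of all genes tested. Of 17 tested imprint regulators 0 were called between genotypes by any of these fits (median 0.03). They were led by the corepressor Trim28 (645 ± 16.9 and 638 ± 5.46 CPM), Atrx (538 ± 22.1 and 549.7 ± 6.70 CPM), Tet3 (422.4 ± 30.5 and 421.8 ± 37.3 CPM), the maintenance methyltransferase Dnmt1 (323 ± 21.3 and 332 ± 14.8 CPM), the imprint-protecting Zfp445 (273 ± 8.45 and 276 ± 8.57 CPM) and the histone methyltransferase Ehmt2 (269 ± 19.3 and 262 ± 22.4 CPM), and the replicate name was called for 6 of 17. Of 18 IGF pathway genes 0 were called between genotypes (median 0.02). The receptor Igf1r stood at 329 ± 11.6 and 338 ± 18.9 CPM, Akt1 at 293 ± 17.4 and 291 ± 19.1 CPM, the Igf2 mRNA-binding Igf2bp1 at 263 ± 55.7 and 270.5 ± 51.5 CPM, Igfbp2 at 220.2 ± 28.1 and 226 ± 23.5 CPM, Irs1 at 188 ± 11.6 and 210.4 ± 19.3 CPM, and Igfbp5 at 186 ± 66.6 and 179 ± 47.3 CPM. The replicate name was called for 11 of the 18. The share of 28.8% of all genes tested is the background for the regulators and the IGF pathway as well.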

How the data were processed

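Per the labels' protocols, stranded mRNA libraries (KAPA kit, paired-end, HiSeq2500) were mapped by the authors to GRCm38 with STAR 2.5.3a and quantified with RSEM 1.3.0 on GENCODE M15. DESeq2 1.18 is also listed in the submitters' notes. The table deposited holds the authors' expected counts per gene as whole numbers, unscaled; the sources used here do not say how they became whole, and RSEM shares reads between overlapping models by estimation.

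Counts were tested with edgeR 4.0.16 in R 4.3.3 (quasi-likelihood, TMM, filterByExpr, Benjamini-Hochberg over all genes, called below 0.05), without a block as main design and with the replicate name as a block as alternative. DESeq2 1.42.0 and limma-voom 3.58.1 were alternatives. EdgeR, DESeq2 and limma-voom, with and without the block, and their tests of the replicate name were tested on simulated data. Fits that leave out libraries were not simulated. The simulated dispersions were those of the blocked edgeR fit, and the simulated genotype changes came without differences between replicate names. Where dispersions varied strongly between genes, the blocked fits and the test of the replicate name made more false calls than the nominal rate. SEs follow from the F statistics, and within-pair log2 values use a prior count of 2. Same-named libraries deviated together across genes (r = 0.493, 0.697 and 0.724, against at most -0.0582 between names), and the labels speak of pairs, so names were taken to pair samples. Libraries of a genotype differed by 10.6 to 43.9 in chi-square per degree of freedom, so none was a copy. P-values measure only the spread between these pools, and with the block only the spread left after differences between replicate names. Per the labels, the 3 pairs were those of best RNA integrity.

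Positions and exon lengths came from GENCODE M21 (GRCm38; 40 members and 16838 tested genes matched).

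The members, lists and tests were chosen with earlier results of these data known. Library values and log2 differences are given for members called in any fit, the 6 of largest difference and the 6 of highest CPM, which gave 12. Other members' library values were added after their values were seen. Of other lists the 6 most abundant genes are named, but markers are given as sums. The backgrounds above 20 CPM and SF3 against SF4 were added after seeing the data.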

Additional observations from a re-analysis of the deposited data

How the results depend on the processing

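Counts of genotype calls rested on the block and the tool. Of all genes edgeR called 0 without the block and 4 with the replicate block (members 0 and 1), DESeq2 called 7 and 14 (members 1 and 2), and limma-voom called 1 and 8 (members 0 and 1). With the replicate block and 1 pair left out, edgeR called 10 genes without SF3, 48 without SF4 and 149 without SF5_6 (members 3, 1 and 2). These are fits on 2 pairs, and the cause of the higher counts was not tested. Without the block, leaving out any 1 library gave 0 calls.

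Several differences between genotypes changed sign without 1 library. The log2 differences ranged, over the fits that leave out 1 library each, from -1.66 to 0.75 for Dlk1, -0.82 to 0.46 for Peg10, -0.65 to 0.13 for Meg3, -0.64 to 0.0027 for Magel2, -0.25 to 0.14 for Peg3 and -0.12 to 0.046 for Nnat, with the highest value of each without control SF5_6. They ranged from -0.0038 to 0.14 for Plagl1 and -0.020 to 0.15 for Grb10, lowest without control SF3. That of Zim1 ranged from -0.95 without control SF4 to -0.25 without control SF5_6, and that of Ndn from 0.60 to 0.72. The fits that leave out 1 library have no block, so that the other library of that name stood without its partner. With the replicate block and the SF3, SF4 or SF5_6 pair left out, the estimates of Dlk1 stayed negative (-0.79, -0.61 and -0.18). So did those of Meg3 (-0.37, -0.23 and -0.24), Magel2 (-0.49, -0.30 and -0.28) and Peg10 (-0.32, -0.22 and -0.075). With the replicate block and no SF5_6 pair, the estimates of Peg3, Nnat and Gnas were 0.00053, 0.044 and 0.021. The cause was not tested.

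The replicate name was called for 4864 genes (22 members), for 3161 (20 members) by DESeq2's likelihood ratio test, and for 1250 (9 members) between SF3 and SF4 alone. Leaving out 1 library gave 3380 to 5029 genes and 18 to 24 members. With 3 pools per genotype, small genotype differences were not detectable, members of a few counts carry no test, and reads were not assigned to parental copies.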
